A study of Homo sapiens with 4 samples.

Results

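The genes described here carry signals from Toll-like receptors and from the kinase ALPK1 to the NF-kB transcription factors, and they were followed from wild-type to MATR3 knockout cells. They were chosen by symbol: Toll-like receptors, MYD88 and other adaptors, the IRAK kinases, TAB proteins, IkB kinases, NF-kB subunits, ALPK1 and TIFA. The symbols picked out 26 of the 785 gene probes, namely 9 receptors, 6 adaptors and kinases, the 2 genes ALPK1 and TIFA, 4 IkB kinase genes and 5 NF-kB subunits. Of these, 22 had a mean of at least 20 normalised counts and were tested, and TLR3, TLR6, IKBKE and RELB lay below that filter.

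The samples were total RNA of 4 cultured lines of HAP1, an established human cell line with a nearly haploid genome. NanoString probes, which are counted on single RNA molecules without amplification, gave the levels. The wild-type group held control clones 1 and 7 (WT1 and WT7), and the knockout group held MATR3 knockout clones 1 and 5 (KO1 and KO5), all purchased from Horizon Discovery. MATR3 encodes matrin 3, a nuclear RNA- and DNA-binding protein. Its own transcript was not analysed here, and the genotype labels were not checked. The labels name no ligand or other stimulus for either group. The wild-type lines came as different batches of the same catalogue item, which the labels also number as clones. There was 1 sample per line, so the p-values rest on the spread between these lines, in part pooled over genes of similar level. Differences between clones or batches cannot be told apart from the genotype. The series title names the cGAS-STING DNA sensing pathway as the study's interest.

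Toll-like receptors recognise microbial molecules at the cell surface or in endosomes. Most of them recruit the adaptor MYD88, which assembles IRAK kinases and, through the ubiquitin ligase TRAF6, activates the kinase TAK1 held by TAB1 and TAB2. TAK1 in turn activates the IkB kinases, which release NF-kB dimers to the nucleus. ALPK1 senses bacterial sugar nucleotides inside the cell and phosphorylates TIFA, which also acts through TRAF6. Receptor levels vary widely between cell types and are highest in leukocytes.

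Of the 22 tested genes, TAB2 rose 2.08-fold and ALPK1 fell 1.88-fold in the knockout, and the other 20 did not pass the threshold, a Benjamini-Hochberg adjusted p of 0.05 with limma over all 514 tested genes. Over all tested genes 8.17% passed, 6.23% as higher and 1.95% as lower in the knockout, so that 2 of 22 was close to the background share. The split over all genes was 32 higher and 10 lower, and 54 higher and 8 lower when the samples were scaled on the reference genes without TBP. Without KO1 it turned to 30 higher and 47 lower, and without KO5 it was 20 higher and 9 lower. The quasi-likelihood test of edgeR on the recovered counts passed 7.98% of all genes, and among the members the same pair, TAB2 and ALPK1. The knockout values lay above both wild-type values in 4 members, against 22.4% of all tested genes, and below both in 10 members, against 30.7%. Of these 10, 6 had a mean from 20 to 50 normalised counts, where 77 of 173 tested genes lay below both. They include TLR5 and IRAK3, which met the filter only through the wild type, so that a lower knockout value was built into their selection. In RNA of a whole culture, fewer expressing cells and less RNA per cell cannot be told apart. The median log2 fold change was -0.24 over the 22 members and -0.0432 over all tested genes. TBP was itself higher in the knockout, and scaling without it raised the log2 fold changes, that of TAB1 from -0.00317 to 0.0795. The median over all genes moved by up to 0.0802 between scalings, so its sign depends on the scaling.

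The 300-base windows around the annotated starts of TAB2, ALPK1 and TIFA are printed because TAB2 and ALPK1 were the members past the threshold and TIFA is both the partner and the chromosomal neighbour of ALPK1. Each window runs from 250 bases before the start to 50 bases after it, 5′ to 3′ on the gene's strand, from RefSeq on build GRCh38.p14. Capitals mark matches, on either strand, to the loose kB pattern of 3 G bases, any 5 bases and 2 C bases. TAB2 has another window in the table, and the first is printed.
ALPK1, chr4:112297119-112297418, plus strand: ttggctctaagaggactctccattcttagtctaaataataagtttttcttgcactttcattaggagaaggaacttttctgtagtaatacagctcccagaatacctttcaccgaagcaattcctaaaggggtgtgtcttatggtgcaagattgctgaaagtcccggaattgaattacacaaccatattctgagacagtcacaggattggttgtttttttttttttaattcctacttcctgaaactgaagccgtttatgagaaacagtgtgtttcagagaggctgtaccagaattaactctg
TIFA, chr4:112285855-112286154, minus strand: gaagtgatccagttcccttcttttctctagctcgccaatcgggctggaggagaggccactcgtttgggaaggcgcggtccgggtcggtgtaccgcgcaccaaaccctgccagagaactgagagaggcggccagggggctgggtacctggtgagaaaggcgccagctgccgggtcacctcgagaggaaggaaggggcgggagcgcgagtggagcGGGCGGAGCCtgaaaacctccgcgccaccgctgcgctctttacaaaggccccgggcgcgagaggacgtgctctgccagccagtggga
TAB2, chr6:149317462-149317761, plus strand: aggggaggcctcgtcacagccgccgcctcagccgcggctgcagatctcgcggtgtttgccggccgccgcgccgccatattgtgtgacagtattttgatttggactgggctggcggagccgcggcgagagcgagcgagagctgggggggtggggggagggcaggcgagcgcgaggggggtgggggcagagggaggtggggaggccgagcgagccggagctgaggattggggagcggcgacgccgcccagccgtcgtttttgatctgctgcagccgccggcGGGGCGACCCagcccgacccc

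The ALPK1 window held no match to the pattern and had a GC content of 38.3%. The TIFA window held 1 match, whose first base lay at position -37 from the start, and had a GC content of 66%. The printed TAB2 window held 1 match, whose first base lay at position 30, and the other TAB2 window held 6. The pattern is common: it occurred in 58.7% of the 35116 windows of the table, and in 24 of the 30 windows that belong to members. Some members have several windows, and by gene it occurred in 16 of 22. The median GC content over all windows was likewise 58.7%, and the part of GC content in these shares was not tested. With a T required as the middle base, a stricter form of the same pattern, the shares were 22% of all windows and 9 of 30. Windows were found for 22 of the 26 members and not for TLR1, TLR7, IKBKB and RELB. A match describes the letters only.

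The total gene count per sample, recovered from the normalised values, ranged from 448610 to 571767. The 8 negative control probes of a sample gave its background limit, their mean plus 2 SD, and the 4 limits lay between 19.5 and 25.7 normalised counts. Of the 26 members, 17 were above the limit in all 4 samples, and TLR3 and RELB were above it in none. Of 14 leukocyte markers on the panel, 10 were above the limit in no sample, among them PTPRC, CD3E and ITGAM. CD14 and CD68 were above it in all 4. The summed level of the 14 markers was 220.1 in WT1, 261.0 in WT7, 214.8 in KO1 and 169.7 in KO5.

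**Figure D1:**
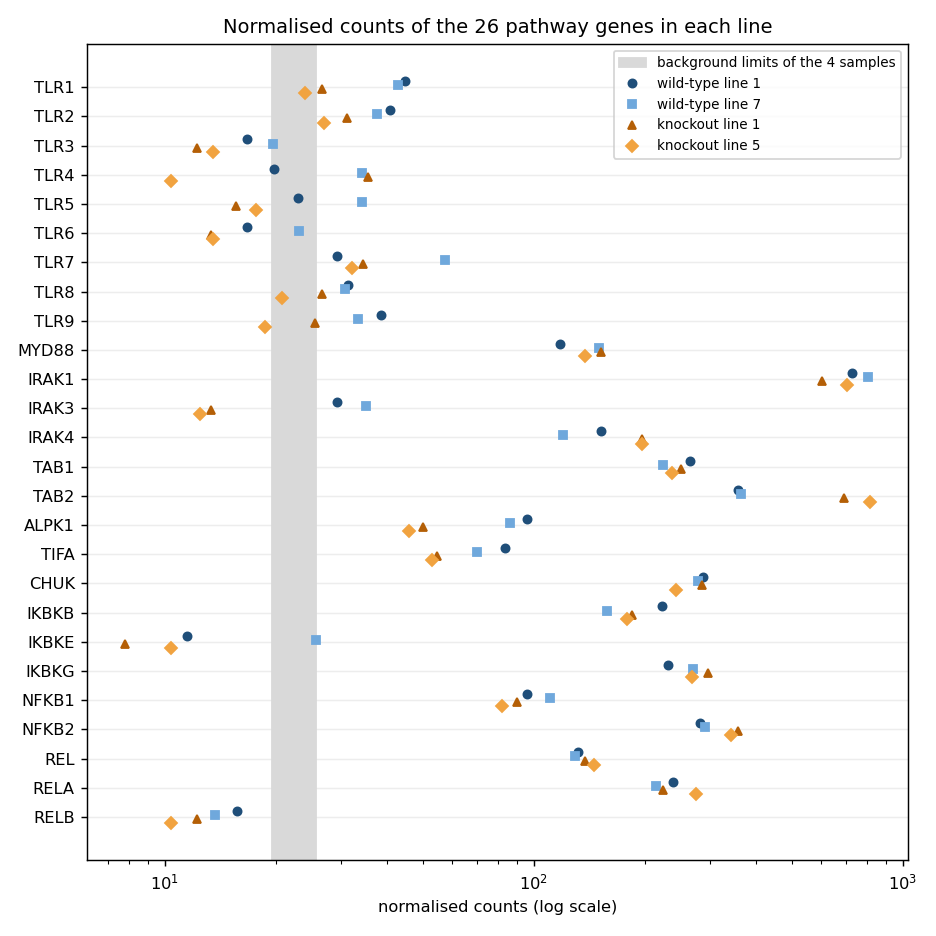
Normalised counts (log scale) of the 26 pathway genes in wild-type lines 1 and 7 and knockout lines 1 and 5, 1 point per line, with the range of the 4 background limits in grey (19.5 to 25.7). The receptors lie near the grey band, and TAB2 and ALPK1 show wild-type and knockout points well apart.

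All 7 tested receptors had a negative log2 fold change, and none passed the threshold. The 7 include TLR5, which met the filter only through the wild type. Without WT7, and also without KO5, 6 of the 7 were lower. The other scalings move all genes together, by up to 0.0802 in the median, so they could not turn any of the 7. TLR1, a surface receptor that pairs with TLR2 for lipopeptides, had 44.9 normalised counts in WT1 and 42.8 in WT7, against 26.7 in KO1 and 23.9 in KO5. Both knockout values of TLR1 lay below both wild-type values, and its log2 fold change was -0.77 ± 0.32 (SE; adjusted p = 0.197 with limma). TLR2 had 40.7 in WT1 and 37.6 in WT7, against 31.2 in KO1 and 27.1 in KO5. Its values were also separated, with -0.42 ± 0.32 on the log2 scale (SE; adjusted p = 0.46 with limma). TLR6, the other partner of TLR2, was below the filter, at 16.7 in WT1, 23.1 in WT7, 13.4 in KO1 and 13.5 in KO5. It exceeded the background limit in WT7 alone. In the fit without a filter its log2 fold change was -0.52 ± 0.43 (SE; adjusted p = 0.539 with limma).

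TLR4, the receptor for bacterial lipopolysaccharide, had 19.8 normalised counts in WT1 and 34.2 in WT7, against 35.6 in KO1 and 10.4 in KO5. The groups overlapped and each spanned the background limit, so the log2 fold change of -0.41 ± 0.55 (SE; adjusted p = 0.666 with limma) was smaller than its error. It was -1.25 without KO1, where the knockout rests on KO5 alone, below its background limit, and 0.44 without KO5. TLR5, the flagellin receptor, had 22.9 in WT1 and 34.2 in WT7, against 15.6 in KO1 and 17.7 in KO5. The groups did not overlap, but WT7 was the only sample above its limit.

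Among the endosomal receptors of nucleic acids, TLR9, which binds DNA, had 38.6 normalised counts in WT1 and 33.4 in WT7, against 25.6 in KO1 and 18.7 in KO5. The knockout values were lower than both wild-type values, -0.69 ± 0.36 on the log2 scale (SE; adjusted p = 0.313 with limma). TLR8, a receptor of single-stranded RNA, had 31.3 in WT1 and 30.8 in WT7, against 26.7 in KO1 and 20.8 in KO5. TLR7, which binds similar RNA, had 29.2 in WT1 and 57.3 in WT7, against 34.5 in KO1 and 32.3 in KO5. The TLR7 groups overlapped, and its log2 fold change of -0.29 became 0.19 without WT7. TLR3, the receptor of double-stranded RNA, was under the limit in all 4 samples, from 12.2 to 19.7.

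The direction of the receptors was shared by most genes counted at this level. Of the 173 tested genes with a mean from 20 to 50 normalised counts, 144 had a negative log2 fold change, with a median of -0.43. Of these 173, 0 passed the threshold with limma or edgeR, and 12 with limma and 11 with edgeR had an unadjusted p under 0.05. The 8 members in this range, the 7 receptors and IRAK3, were all lower. TLR5 and IRAK3 had a knockout mean under 20 and passed the filter only through the wild type, so a lower knockout value was built into their selection. The same held for 68 of the 173 genes, while 2 had a wild-type mean under 20. The negative control probes, multiplied by each sample's factor, averaged 8.87 in WT1, 8.56 in WT7, 8.49 in KO1 and 7.94 in KO5. Without KO5, which had 409 genes above its limit against 448 to 558 in the other samples, the median over the 173 genes was -0.17, and without KO1 it was -0.63. The part of background signal in these differences was not tested. The medians over all genes were -0.0657 for means from 50 to 100, 0.0342 from 100 to 300 and 0.0449 at 300 or more.

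**Figure D2:**
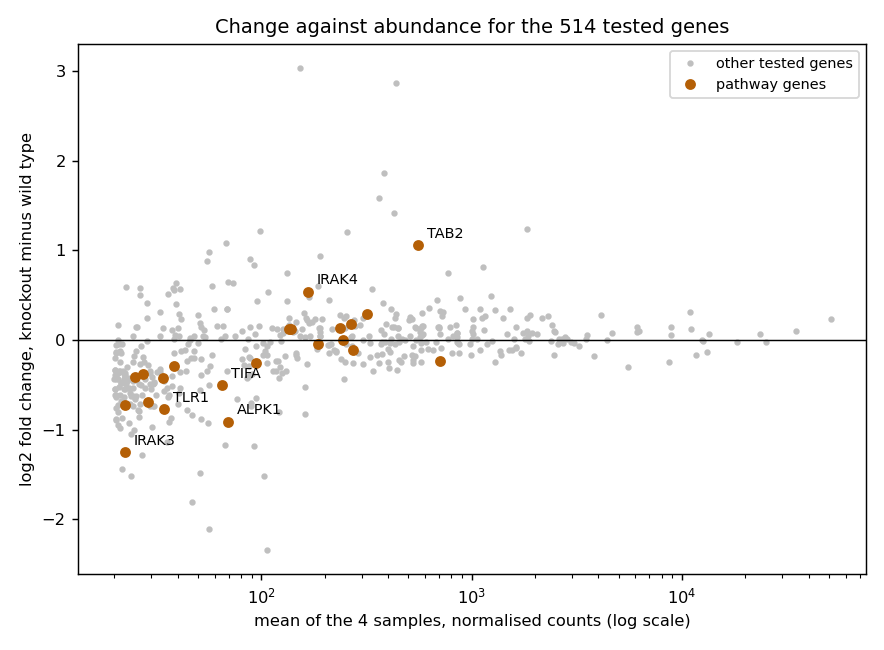
Log2 fold change, knockout minus wild type, against the mean of the 4 samples in normalised counts (log scale) for the 514 tested genes, with the 22 pathway genes in orange and the others in grey. Most genes at the left edge lie below 0 (144 of 173 with a mean from 20 to 50), and the receptors lie among them, and TAB2 lies above most genes of similar abundance. ALPK1 was 1 of 6 genes called lower among the 61 with a mean from 50 to 100.

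TAB2, the adaptor that ties TAK1 to ubiquitin chains, had the smallest adjusted p among the members. It had 357 normalised counts in WT1 and 364 in WT7, against 693 in KO1 and 816 in KO5. Both knockout lines were far above both wild-type lines, whose values nearly coincided. The mean rose from 360 ± 4.83 to 755 ± 86.7 (SD, n = 2), 1.06 ± 0.11 on the log2 scale (SE; adjusted p = 6.09e-05 with limma). It passed the threshold in 11 of 12 alternatives, at 0.94 to 1.18, and lost it under limma without the trend (adjusted p = 0.0774). TAB1, the other TAK1 partner measured, had 265 in WT1 and 224 in WT7, against 250 in KO1 and 236 in KO5. The TAB1 groups overlapped, and the 95% interval of its log2 fold change ran from -0.30 to 0.29.

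Genes beside TAB2 on chromosome 6 also had positive log2 fold changes. In the gene order of GRCh38.p14, the tested genes next to it are IL20RA, a cytokine receptor chain, 0.88 ± 0.26 on the log2 scale (SE; adjusted p = 0.072 with limma), and SOD2, mitochondrial superoxide dismutase, at 0.81 ± 0.09 (SE; adjusted p = 0.000116 with limma). The 7 tested genes with a mean of 50 or more from FYN to TBP, TAB2 included, had log2 fold changes from 0.65 to 1.24. The 22 before FYN had a median of 0.10, but PSMB8 (1.58), PSMB9 (0.84), TAP1 (0.60) and CGAS (0.57) among them also passed the threshold as higher. Over the whole chromosome, 6 of the 29 genes at this level had a negative log2 fold change. TBP, a general transcription factor and, by the values, 1 of 10 reference genes used in the authors' scaling, had 598 normalised counts in WT1 and 561 in WT7, against 1020.4 in KO1 and 926 in KO5. With TBP left out of the scaling the log2 fold change of TAB2 was 1.14. The genes from FYN to TBP were picked out after their values had been seen. Whether the chromosomal position had a part in the rise of TAB2 was not tested. DNA copy number of the lines was not analysed here, so for TAB2, SOD2 and TBP a change in gene copies cannot be told apart from a change in RNA per copy.

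ALPK1 fell and TIFA did not pass. ALPK1 had 96.0 normalised counts in WT1 and 86.4 in WT7, against 50.1 in KO1 and 45.8 in KO5. Both knockout values were well under both wild-type values, and all 4 were above the background limit. The recovered counts behind these values were 92 in WT1, 101 in WT7, 45 in KO1 and 44 in KO5. The mean fell from 91.2 ± 6.76 to 47.9 ± 3.03 (SD, n = 2), -0.91 ± 0.22 on the log2 scale (SE; adjusted p = 0.0298 with limma). Leaving out WT1 (adjusted p = 0.123), WT7 (0.0502) or KO5 (0.0864) ended the call, as did limma without the trend (0.0801), with the value between -0.99 and -0.80 in all alternatives. TIFA, the adaptor that ALPK1 phosphorylates, had 83.5 in WT1 and 70.2 in WT7, against 54.5 in KO1 and 53.1 in KO5. Its groups were separated in the same direction, with -0.50 ± 0.23 on the log2 scale (SE; adjusted p = 0.258 with limma).

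TIFA and ALPK1 are neighbours in the RefSeq order of chromosome 4, with 0 annotated genes between them, and are transcribed away from each other. Chromosome 4 carries 7 of the 26 members, TLR1, TLR6, NFKB1, TIFA, ALPK1, TLR2 and TLR3, and in all 7 the knockout mean was the lower one. Of these 7, TLR1, TLR2, TLR3 and TLR6 had a mean under 50, a level at which most tested genes over all chromosomes were lower (144 of 173). Among its 12 tested genes whose mean was at least 50, 9 had a negative log2 fold change, and the median of -0.23 was the lowest of the 23 chromosomes with such genes. Without the 3 members among them, 6 of 9 were negative, with a median of -0.17. The next gene in that set beyond ALPK1 was GUCY1B1, a guanylate cyclase subunit, at -0.40 ± 0.28 (SE; adjusted p = 0.448 with limma), and the next before TIFA was LEF1, a transcription factor of Wnt signalling, at -0.17 ± 0.21 (SE; adjusted p = 0.63 with limma). Chromosome 4 was looked at after the values had been seen, and its part in these differences was not tested. The limit on copy number holds here too.

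**Figure D3:**
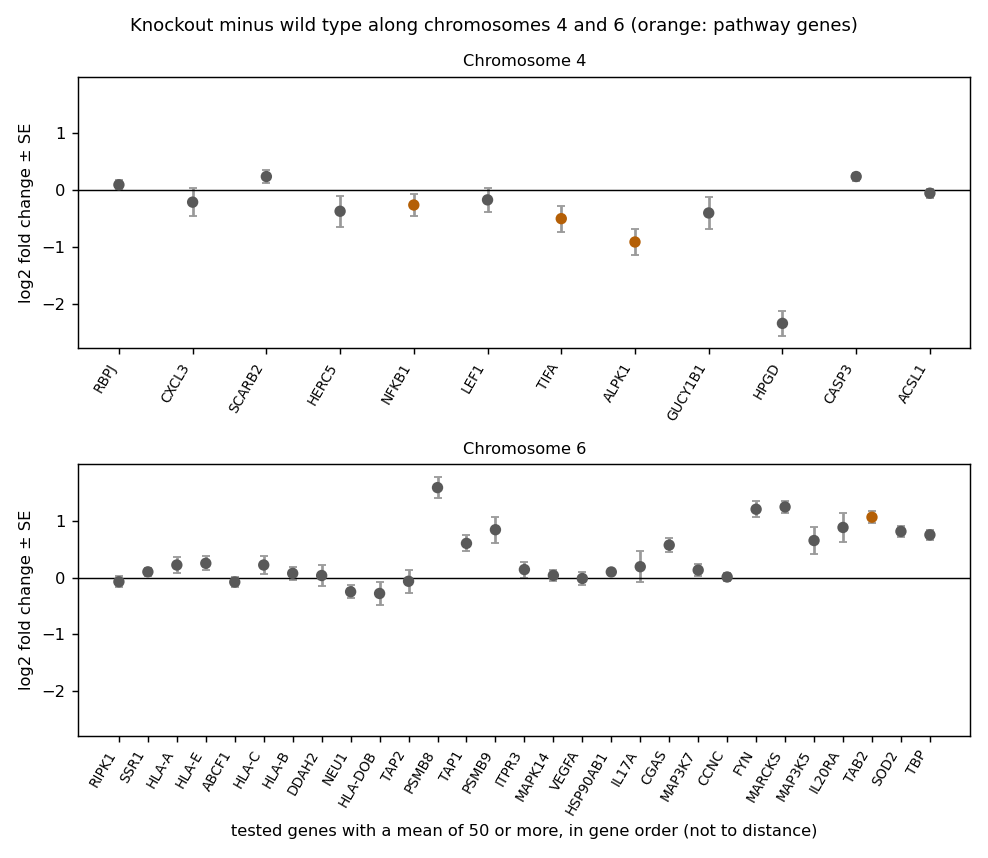
Log2 fold change ± SE, knockout minus wild type, of tested genes with a mean of 50 or more on chromosomes 4 (12 genes) and 6 (29 genes), in gene order and not to distance, with pathway genes in orange. On chromosome 6 the last 7 genes, TAB2 among them, all lie above 0 (0.65 to 1.24), and PSMB8 before them lies at 1.58. On chromosome 4 NFKB1, TIFA and ALPK1 lie below 0.

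No change in MYD88, the central adaptor, was detectable. It had 118 normalised counts in WT1 and 150 in WT7, against 152 in KO1 and 137 in KO5. The groups overlapped, and the 95% interval of the log2 fold change of 0.12 ran from -0.26 to 0.51.

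The IRAK kinases, which MYD88 recruits, had log2 fold changes of both signs, and none passed the threshold. IRAK4, the kinase that starts the cascade, had 152 normalised counts in WT1 and 120 in WT7, against 196 in KO1 and 197 in KO5. Both knockout values were higher, and the log2 fold change of 0.54 ± 0.16 (SE) did not pass (limma adjusted p = 0.0746). It passed when the samples were scaled on the reference genes without TBP (0.62, limma adjusted p = 0.0267). With 1 wild-type line left, the log2 fold change was 0.71 without WT1 and 0.36 without WT7. IRAK1, which IRAK4 phosphorylates, had 727 in WT1 and 803 in WT7, against 604 in KO1 and 705 in KO5. Its values were separated by a small margin, with -0.23 ± 0.10 on the log2 scale (SE; adjusted p = 0.251 with limma).

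IRAK3, also called IRAK-M, restrains the cascade. It had 29.2 normalised counts in WT1 and 35.1 in WT7, against 13.4 in KO1 and 12.5 in KO5. Both wild-type values were above their background limits and both knockout values were below theirs. The log2 fold change was -1.25 ± 0.41 (SE; adjusted p = 0.102 with limma), and -1.29 without KO1, which leaves 1 knockout line. As IRAK3 met the filter through the wild type alone, its direction is given as a description.

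None of the IkB kinase genes passed, and in the 3 tested ones the groups overlapped. CHUK, the catalytic subunit IKK-alpha, had 288 normalised counts in WT1 and 278 in WT7, against 285 in KO1 and 242 in KO5. The 95% interval of its log2 fold change ran from -0.39 to 0.18. IKBKB, the catalytic subunit IKK-beta, had 222 in WT1 and 157 in WT7, against 185 in KO1 and 179 in KO5. The wild-type lines lay further apart here than the knockout lines, and the interval ran from -0.42 to 0.34. IKBKG, the regulatory subunit NEMO, had 231 in WT1 and 269.5 in WT7, against 296 in KO1 and 268 in KO5, with an interval from -0.11 to 0.47. IKBKE, a related kinase that also acts in interferon induction, was above the limit in WT7 alone, at 25.7, and between 7.79 and 11.5 in the other samples.

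Among the NF-kB subunits, NFKB2, the p100 precursor of the p52 subunit, had values that did not overlap between the groups. It had 283 normalised counts in WT1 and 290.1 in WT7, against 358 in KO1 and 342 in KO5. Both knockout values were higher, at a log2 fold change of 0.29 ± 0.11 (SE), which did not pass (limma adjusted p = 0.181). NFKB1, the p105 precursor of p50, had 96.0 in WT1 and 110.4 in WT7, against 90.1 in KO1 and 82.2 in KO5. It pointed the other way, with -0.26 ± 0.19 on the log2 scale (SE; adjusted p = 0.46 with limma).

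The subunits with a transactivation domain did not pass either. RELA, or p65, had 238 normalised counts in WT1 and 215 in WT7, against 224 in KO1 and 275 in KO5. The groups overlapped, and the 95% interval of the log2 fold change ran from -0.18 to 0.45. REL, or c-Rel, had 131 in WT1 and 129 in WT7, against 138 in KO1 and 146 in KO5, a small separation within an interval from -0.23 to 0.47. RELB, the usual partner of p52, was under the background limit in all 4 samples, from 10.4 to 15.7.

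**Figure D4:**
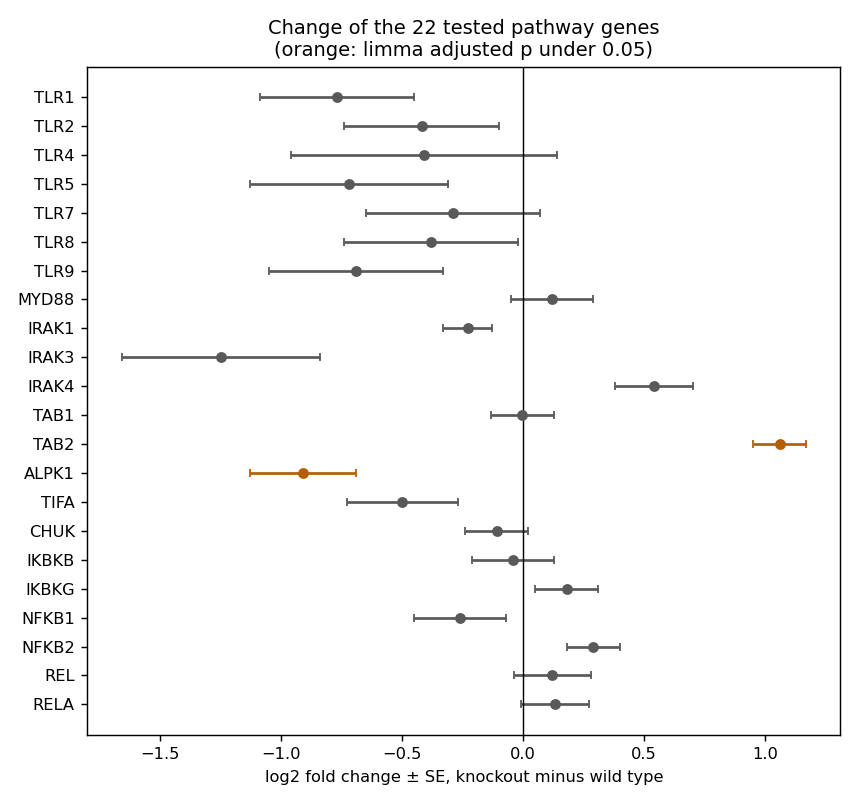
Log2 fold change ± SE, knockout minus wild type, of the 22 tested pathway genes in order of their role, from receptors at the top to NF-kB subunits at the bottom. Orange marks TAB2 (1.06) and ALPK1 (-0.91), which passed an adjusted p of 0.05 with limma. The receptors have the widest error bars together with IRAK3, and all 7 lie below 0.

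The other genes of the pathway were read from lists of upstream partners, negative regulators and NF-kB targets that hold none of the members. The list of upstream partners takes in side branches too, such as TBK1, so its name does not place each gene before NF-kB. Of 17 upstream partners, all tested, TBK1 and SYK rose and 0 fell, and the median log2 fold change was -0.00187. For comparison, 6.23% of all tested genes were called higher, with a median of -0.0432. SYK, a tyrosine kinase of immune receptors, had 34.4 normalised counts in WT1 and 40.2 in WT7, against 83.5 in KO1 and 66.6 in KO5, 0.98 ± 0.26 on the log2 scale (SE; adjusted p = 0.0411 with limma). Its call was lost with edgeR (adjusted p = 0.0521), under limma without the trend (0.113), without WT1 (0.0893) and without KO1 (0.0951). TBK1, the kinase that links these receptors and STING1 to interferon induction, had 337 in WT1 and 317 in WT7, against 419.5 in KO1 and 449.6 in KO5, 0.41 ± 0.11 on the log2 scale (SE; adjusted p = 0.0411 with limma). Its call was lost without WT7 (adjusted p = 0.132) or KO5 (0.222), without a filter (0.0524), with positive control scaling (0.0889) and under limma without the trend (0.222).

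Of the 4 negative regulators, all tested, SIGIRR rose and 0 fell, beside 6.23% called higher and 1.95% called lower over all tested genes. The median log2 fold change of the 4 was 0.0708, with 3 higher and 1 lower. SIGIRR, a receptor of the same superfamily that dampens the cascade, had 781 normalised counts in WT1 and 695 in WT7, against 1033.8 in KO1 and 1011.5 in KO5. Both knockout values were higher, with 0.47 ± 0.09 on the log2 scale (SE; adjusted p = 0.00724 with limma). With any 1 sample left out the log2 fold change of SIGIRR was 0.39 to 0.56. It did not pass under limma without the trend (adjusted p = 0.196).

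Of 24 NF-kB targets, 15 were tested, 2 rose and 0 fell, and the median log2 fold change was -0.21, with 4 higher and 11 lower. Over all 514 tested genes 218 were higher and 296 lower under the authors' scaling, and 6.23% were called higher. Of the 11 lower targets, 7 had a mean from 20 to 50, where 144 of 173 genes were lower. The genes that rose were VCAM1, an adhesion molecule, at 3.03 ± 0.20 (SE; adjusted p = 5.68e-06 with limma), and SOD2, which lies beside TAB2 in the gene order. VCAM1 had 28.2 normalised counts in WT1 and 37.65 in WT7, where the background limits were 25.7 and 21.1, against 274 in KO1 and 274 in KO5. The size of its fold change therefore rests on low wild-type values. SOD2 had 801 normalised counts in WT1 and 844 in WT7, against 1543.4 in KO1 and 1351.8 in KO5. Its call was lost under limma without the trend alone (adjusted p = 0.095).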

How the data were processed

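NanoString counts of total RNA were read from the deposited value table of 4 samples, 2 per genotype. The deposited values are a normalised signal: by the values, the authors multiplied each sample's whole counts by 1 factor, between 0.856 and 1.11, within a tolerance of 0.006. The factors equalise 10 reference genes; the labels state no method, and whether background was subtracted is not given in the sources used here. The submitters' processing notes name R 4.1.1. Whole counts were recovered by division, with 100% of values above the lowest steps whole, and a few values of WT7 stand at a floor of 1.00.

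Knockout was compared with wild type by limma 3.58.1 in R 4.3.3 (lmFit, then eBayes with its trend option) on log2(value + 1) for genes with a mean of 20 or more. Fold changes on this scale understate low genes. P-values are two-sided and adjusted over all 514 tested genes by Benjamini-Hochberg. The alternatives were other scalings, filters, a pseudocount of 10, limma without the trend, edgeR 4.0.16 on the recovered counts, and leaving out each sample. Replicates differed by more than counting noise (chi-square per degree of freedom 4.33 and 3.47). Their number, 2 per group, limits the precision.

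Every member is named with its level, and list genes past the threshold are named. Members and lists were chosen with earlier results of these data known. Gene order and the 26 matched symbols come from RefSeq tables of GRCh38.p14, and 11 tested probes had no place there.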

Additional observations from a re-analysis of the deposited data

How the results depend on the processing

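No paired analysis was possible because line number 1 alone occurs in both genotypes. The 2 members past the threshold, TAB2 and ALPK1, were the same under every scaling, filter and pseudocount and with edgeR, except that IRAK4 joined them with the reference genes without TBP. The alternative scalings moved the median of all genes by up to 0.0802. Limma without the trend left 0 members, 0 upstream partners, 0 negative regulators and 1 target, and 4 genes in all, 2 higher and 2 lower. Without single samples the members past the threshold numbered 1 to 4, upstream partners 1 to 2, and all genes 29 to 77, with 20 to 38 higher and 9 to 47 lower; 77 and 47 came without KO1, and 29 and 20 without KO5. Upstream partners were 1 with the positive control probes, without a filter and with edgeR. With the reference genes without TBP 54 genes were higher.

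Of the 20 members not past the threshold, TLR4, IRAK3 and IRAK4 passed it in an alternative, and 7 changed sign in at least 1. TLR4 and IRAK3 passed only without KO1, where KO5 alone stood for the knockout. Their KO5 values were 10.4 and 12.5, under its background limit of 21.7. IRAK3 also met the filter only through the wild type. TAB1, at -0.00317, was at 0.0795 with the reference genes without TBP, 0.0245 with equal sample medians, 0.0188 with positive control probes, and -0.12 to 0.12 over all alternatives, with 0.0386 without KO5. With TBP left out IKBKB was at 0.0419. Without single samples TLR4 ranged from -1.25 to 0.44, CHUK from -0.22 to 0.00966 and RELA from -0.015 to 0.28, each turning without KO5. MYD88 ranged from -0.0489 to 0.29 and IKBKB from -0.29 to 0.21, both turning without WT1, and TLR7 from -0.76 to 0.19, turning without WT7. The cause was not tested. Where leaving out 1 sample reduced a group to a single line, that line was taken to vary like the other group. Genes with a mean under 50 were measured near the background limits, which bounds what can be said of the receptors.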
